A study of Mus musculus with 15 samples.

Results

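CpG sites whose methylation barely differed among mice were described in the dentate gyrus, the part of the hippocampus in which new neurons form in adult mice. They were the autosomal CpG cytosines with a value in all 15 mice and a highest minus lowest value under 5 percentage points. This range chose 13194 of 109658 complete autosomal CpG sites. Of these, 11741 had a mean under 20% (10.7% of complete sites, called low sites here), 1453 had a mean above 80% (1.33%, called high sites), and 0 lay between. The values of all 15 mice chose the members, so their levels and ranges are given as a description. Testing of single sites usually leaves such positions out, since they hold almost no difference to test.

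All 15 mice were female, 7.5 months old and of strain C57BL/6JRj, with 5 mice per group. The standard group spent 6 months in standard cages, the enriched group 6 months in an enriched environment, and the withdrawal group 3 months in enrichment and then 3 months in standard cages. The assay, reduced representation bisulfite sequencing (RRBS), sequences CpG-rich restriction fragments after a treatment that converts unmethylated cytosines. A value is the percentage of reads that were methylated at a cytosine, and each strand of a CpG is a separate site. The tissue is a mixture of cell types, so a level is an average over cells, and fewer methylated cells cannot be told apart from fewer methylated copies per cell. Methylation cannot count cell types, but start sites of marker genes gave a partial view. Complete sites within 1 kb of a start averaged 2.29% at Prox1, 2.24% at Bcl11b and 11.7% at Il16 (1 site). These genes were listed here for granule neurons. Markers of other cells were as low in part: 2.53% at Wfs1 and 3.23% at Fibcd1 (pyramidal neurons), 1.83% at Lhx6 and 2.87% at Dlx2 (interneurons) and 1.63% at Slc1a3 (astrocytes). The astrocyte genes Aldh1l1 (33.4%) and Aldoc (39.8%) and the microglial gene P2ry12 (24.7%) were higher, so these levels do not separate granule neurons from other cells.

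In mammalian genomes most CpG dinucleotides are methylated, and the maintenance methyltransferase Dnmt1 copies the mark to the new strand when DNA is replicated. CpG islands, which are dense in CpG and often hold gene starts, are the main exception. Proteins with a CXXC domain, such as Kdm2b and Cxxc1, bind unmethylated CpG and bring chromatin modifiers that are linked to the unmethylated state.

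The promoters below show where low sites lie in sequence. Each is the 250 bases before a RefSeq transcript start in build GRCm38.p6, written 5′ to 3′ on the gene's strand, and capitals mark the CpG dinucleotides that hold a low site. Lin52 (chr12:84451258-84451507, plus strand), a subunit of the DREAM cell cycle complex, and Arl1 (chr10:88731164-88731413, plus strand), a small GTPase of the Golgi, are among the genes with the most low sites near a start. Gadd45b (chr10:80929841-80930090, plus strand) and Egr2 (chr10:67537316-67537565, plus strand) are induced by neuronal activity. Bcl11b (chr12:108003415-108003664, minus strand) encodes a zinc finger transcription factor of dentate granule neurons.
Lin52: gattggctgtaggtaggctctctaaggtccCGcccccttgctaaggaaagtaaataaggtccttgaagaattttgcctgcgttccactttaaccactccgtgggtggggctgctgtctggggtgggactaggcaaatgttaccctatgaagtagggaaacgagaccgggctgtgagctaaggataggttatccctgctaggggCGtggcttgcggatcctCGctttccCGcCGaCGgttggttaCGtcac
Arl1: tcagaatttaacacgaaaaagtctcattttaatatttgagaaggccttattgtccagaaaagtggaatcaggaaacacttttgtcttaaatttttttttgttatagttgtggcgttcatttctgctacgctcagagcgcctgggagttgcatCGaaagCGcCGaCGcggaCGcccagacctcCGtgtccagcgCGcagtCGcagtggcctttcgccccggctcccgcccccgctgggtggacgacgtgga
Gadd45b: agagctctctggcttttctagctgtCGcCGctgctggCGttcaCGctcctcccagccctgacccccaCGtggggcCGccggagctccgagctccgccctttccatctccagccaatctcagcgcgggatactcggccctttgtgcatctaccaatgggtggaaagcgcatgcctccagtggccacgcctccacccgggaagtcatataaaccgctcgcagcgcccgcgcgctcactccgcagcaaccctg
Egr2: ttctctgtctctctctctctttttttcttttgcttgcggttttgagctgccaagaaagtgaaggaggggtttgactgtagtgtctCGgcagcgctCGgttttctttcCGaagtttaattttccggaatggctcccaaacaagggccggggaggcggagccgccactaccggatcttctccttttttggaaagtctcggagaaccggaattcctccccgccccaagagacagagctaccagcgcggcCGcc
Bcl11b: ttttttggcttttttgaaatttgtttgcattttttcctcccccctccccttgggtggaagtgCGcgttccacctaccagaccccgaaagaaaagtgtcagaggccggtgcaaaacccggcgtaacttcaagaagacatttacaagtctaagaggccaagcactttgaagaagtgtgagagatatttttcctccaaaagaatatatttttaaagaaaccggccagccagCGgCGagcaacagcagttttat

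In the Lin52 sequence 7 of 12 CpG dinucleotides held a low site, and all 11 low sites there (both strands of a CpG can count) were at 0% in every mouse. In the Arl1 sequence 8 of 20 CpG held a low site, again at 0% in every mouse. The 6 low sites of the Gadd45b sequence averaged 0.410%, the 4 of Egr2 0.381% and the 3 of Bcl11b 0.462%. Lower-case CpG were not members, either because a mouse lacked a value or because the range was wider. The tetranucleotide ccgg occurs 1 time in the Lin52, 1 time in the Arl1, 2 times in the Gadd45b, 4 times in the Egr2 and 3 times in the Bcl11b sequence, and 0 of the capitals in these sequences fall inside it.

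High sites in promoters were rare, and the next set shows 2 examples. Of 20085 autosomal promoters of protein-coding genes (250 bases before and 50 after a start), 5 held a high site, and 2 of them are printed for the 250 bases before the start, with capitals marking the CpG of the high site. D1Pas1 (chr1:186967166-186967415, plus strand) is a testis-expressed DEAD-box RNA helicase gene. Zfp977 (chr7:42592546-42592795, minus strand) is a zinc finger gene.
D1Pas1: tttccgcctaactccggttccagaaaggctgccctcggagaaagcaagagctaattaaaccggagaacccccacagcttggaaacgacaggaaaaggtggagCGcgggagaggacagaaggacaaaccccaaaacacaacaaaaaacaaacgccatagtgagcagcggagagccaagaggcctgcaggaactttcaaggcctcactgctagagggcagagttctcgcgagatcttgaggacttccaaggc
Zfp977: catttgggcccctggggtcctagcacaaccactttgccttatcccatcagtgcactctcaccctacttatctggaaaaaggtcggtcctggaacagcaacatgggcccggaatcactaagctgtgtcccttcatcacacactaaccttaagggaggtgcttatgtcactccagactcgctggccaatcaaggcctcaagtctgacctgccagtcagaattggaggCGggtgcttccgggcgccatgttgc

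The D1Pas1 member averaged 99.6% with a range of 3.83 points, and 3 other complete sites in the printed sequence averaged 96.4%. The Zfp977 member was at 100% in every mouse, beside 2 other complete sites that averaged 85.6%. The printed sequences hold 11 and 6 CpG, and the low-site sequences above hold from 9 (Bcl11b) to 22 (Gadd45b), so these examples overlap in CpG count. As classes they differed: the 5 promoters with a high site had a median of 8 CpG, against 21 in the 1035 promoters with a low site.

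Most low sites were completely unmethylated in the reads of every mouse. At 8001 of the 11741 low sites (68.1%) all 15 values were 0%. At a further 2123 (18.1%) a single mouse departed from 0%, and at 9 sites every mouse did. Low-site means ran from 0% to 6.18%. High sites were less uniform: 628 of 1453 (43.2%) were at 100% in all mice, 383 (26.4%) departed from 100% in a single mouse, and site means ran from 96.5% to 100%. Both sets were thus at the ends of the scale, far inside the limits of 20% and 80%. Just inside the range limit were a site at 27466014 of chromosome 15 (minus strand, near a start of Ank, 0.365% to 5.36%) and a high site at 27389250 of chromosome 12 (minus strand, between genes, 95.02% to 100%). Just outside were a site at 44103020 of chromosome 1 (minus strand, near a start of Tex30, 0% to 5%) and a high-mean site at 8635599 of chromosome 10 (plus strand, between genes, 95% to 100%).

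Location separated the low from the high sites. On the 18 autosomes with start positions, 64.3% of low sites (7294 of 11337) lay within 1 kb of a RefSeq transcript start of a protein-coding gene, 14.2% within 1 kb of another gene end (a class that also takes starts without a record in the start table), 11.2% inside a gene and 10.3% between genes. Among the other complete sites with a mean under 20%, 36.0% lay near a start, and among all other complete sites 14.9%. Of high sites, 1.15% (16 of 1391) lay near a start, 37.0% inside genes and 59.5% between genes. The other complete sites with a mean above 80% had nearly the same split, with 1.19%, 36.9% and 59.9%. The shares of high sites lay within 1 percentage point of those of variable high-mean sites. For low sites the comparison is not at a matched level: the median site mean was 0% for low sites and 4.53% for the other sites under 20%, and the range limit itself keeps sites near 0%. The median distance to a start was 0.504 kb for low sites against 6.24 kb for other low-mean sites, and 68.9 kb for high sites against 59.2 kb for other high-mean sites. Shares over sites are given with no test, since neighbouring sites share reads and genes.

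**Figure D1:**
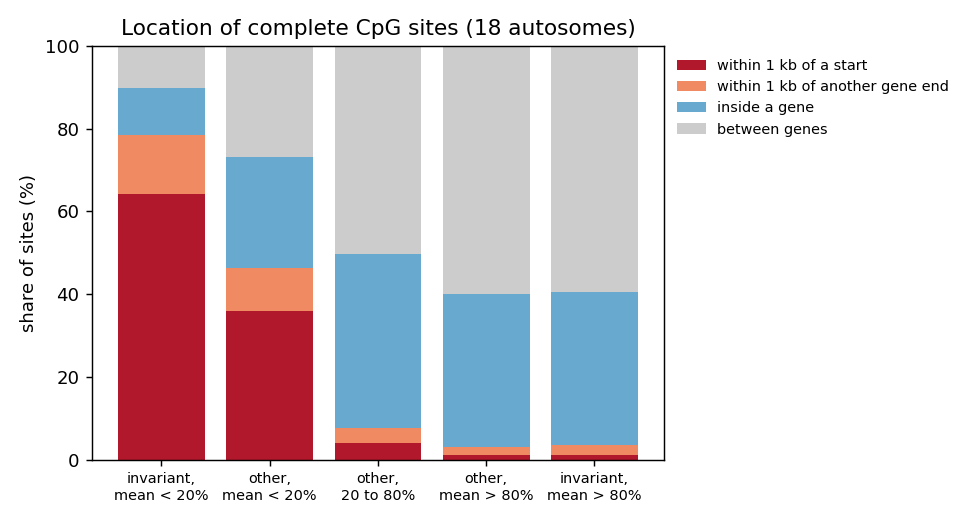
Share of complete CpG sites (y axis, percent) in 4 location classes for invariant and other sites grouped by mean methylation, on 18 autosomes. The segment within 1 kb of a start takes 64.3% of low invariant sites and 36.0% of other low-mean sites, and the bars for invariant and other high-mean sites look alike.

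Read the other way, the share of sites that met the range limit differed widely by place for low means only. The sites of the 4 places were not matched for level, read depth or the sequence CCGG. Of low-mean sites near a start 36.6% were invariant, of those at other gene ends 30.8%, inside genes 11.8% and between genes 11.1%. Of high-mean sites 3.43%, 4.21%, 3.56% and 3.52% were invariant in the same order.

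CpG density also separated the low from the high sites. Density was counted as the further CpG positions of the table within 100 bases of a site, a count that misses CpG outside the sequenced fragments. The median was 6 (quartiles 4 and 9) for low sites, 3 (2 and 6) for other low-mean sites, 2 (1 and 4) for high sites and 2 (1 and 3) for other high-mean sites. At least 10 neighbours were found for 21.7% of low sites, 7.68% of other low-mean sites and 0.964% of high sites. Among low-mean sites with no neighbour 1.11% were invariant, and with 15 or more 49.4%. These shares pool CpG inside and outside the sequence CCGG. At low-mean promoter sites outside CCGG, with density counted in sequence within 50 bases, the share went from 50.6% to 58.5%. The set of sites, the distance and the density classes all differ there, so the spans cannot be set against each other. For high-mean sites the invariant share was 3.04% with no neighbour and 7.31% with 6 to 9. The denser classes held 172 and 15 high-mean sites.

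**Figure D2:**
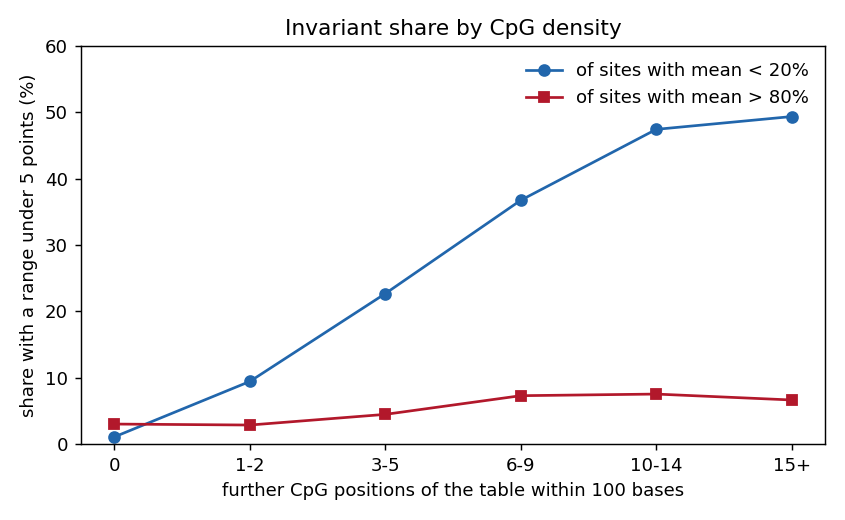
Share of sites with a range under 5 points (y axis, percent) by the number of further CpG positions within 100 bases (x axis), for sites with a mean under 20% (circles) and above 80% (squares). The low-mean share goes from 1.11% to 49.4%, and the high-mean share stays between 2.89% and 7.56%. CpG inside and outside CCGG are pooled.

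In promoter sequences CpG were counted without regard to coverage, but the promoter classes still depend on it. A promoter with more complete sites has more chances to hold a low site, and the classes were not matched for that number. Of 20085 promoters, 1035 (979 genes) held a low site. They had a median of 21 CpG in 300 bases and an observed over expected CpG ratio of 0.807, against 13 and 0.598 in the 495 promoters that had complete sites but no invariant one, and 14 and 0.586 in all promoters. Their median GC content was 60%, against 56.3% and 57.0%. The build was checked on these sequences: all 39575 table positions that fall in them read CG, and 8.65% did after a shift of 10 bases.

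The bases around a CpG also divided the low-mean sites. RRBS commonly uses the enzyme MspI, which cuts at CCGG. The labels name a commercial RRBS kit but no enzyme, and this comparison was chosen after values had been seen. Of promoter CpG sites with a mean under 20%, 34 of 1309 inside CCGG were invariant (2.60%), against 2383 of 4264 outside it (55.9%). The sites inside CCGG averaged 4.88% with a median range of 21.9 points, and those outside 0.878% with 3.34 points. The difference in level held in every mouse, with means of 4.23% to 5.61% inside and 0.786% to 0.976% outside CCGG, and the values of the 2 contexts did not overlap. Promoter rows that the rule did not use, because a mouse lacked a value, had the same order: 4.82% in 5235 low-mean sites inside CCGG and 0.765% in 23806 outside. Outside CCGG the invariant share went from 50.6% with 0 to 3 further CpG within 50 bases to 58.5% with 10 or more, and inside CCGG it lay between 2.05% and 3.59% at every density. The cause of the difference between the contexts was not tested.

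**Figure D3:**
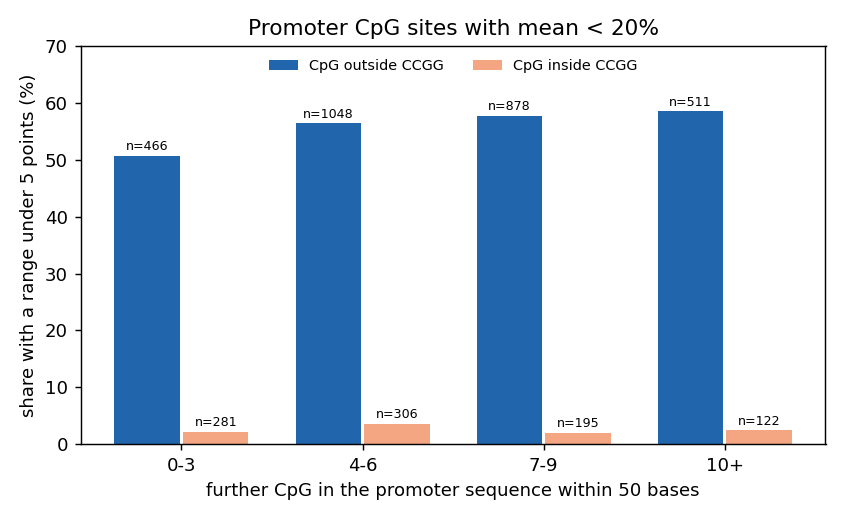
Share of promoter CpG sites with a mean under 20% that had a range under 5 points (y axis, percent), by the number of further CpG within 50 bases of promoter sequence (x axis) and by whether the CpG lies inside CCGG. Bars outside CCGG stand between 50.6% and 58.5% and bars inside CCGG between 2.05% and 3.59%.

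Short motifs were searched on both strands of the 300 bases, as a description of the promoters. Promoters with a low site are set first against the 495 with complete sites but no invariant one, and then against all promoters, most of which held no complete site. GGGCGG, the GC box bound by Sp1, was in 62.2%, 47.7% and 47.0%. CCGGAAG, an ETS factor core that itself holds CCGG, was in 35.5%, 18.2% and 11.9%. CACGTG, the E-box of USF and Myc factors, was in 10.4%, 7.07% and 7.89%. TGACGTCA, the cyclic AMP response element, was in 2.61%, 2.22% and 2.30%, and TATAAA in 6.18%, 9.09% and 12.7%. CCGG itself was in 99.8%, 99.6% and 63.5%, so a contrast with all promoters is also one of coverage. All of these motifs except TATAAA hold a CpG. Promoters with a low site had more CpG (median 21, against 13 in the 495), and the classes were not matched for it. Binding by these factors was not tested.

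The opposite strand of the same CpG had a value in all mice for 784 low sites, and 434 of these partners (55.4%) were low sites too. These partners were themselves open to the rule, so the count is a description. Rows that lacked a value in some mice were not used by the rule. For 1841 low sites the partner was such a row, and these partners averaged 0.724%, against 5.20% for 4842 partners of other low-mean sites. CCGG reads the same on both strands, so a partner shares that context. In promoters 1.41% of low sites and 40.4% of other low-mean sites lay inside CCGG, and the partners were not split by it. CpG sites within 50 bases that lacked a value in some mice (8434 sites) averaged 1.51% around low sites and 4.45% around other low-mean sites. Around high sites such neighbours (359 sites) averaged 94.9%, against 90.2% around other high-mean sites. These means ran from 1.35% to 1.65% over the mice around low sites and from 4.06% to 5.53% around other low-mean sites, so the mice of the 2 sets did not overlap. Around high sites they ran from 93.6% to 95.9% and around other high-mean sites from 89.1% to 90.9%.

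Non-CpG cytosines, which are rarely methylated outside neurons and stem cells and also carry incomplete conversion, averaged 0.482% within 50 bases of low sites and 0.585% near other low-mean sites. Near high sites they averaged 3.67%, and near other high-mean sites 1.07%. The higher mean near high sites came from few places. At 28 of the 1453 high sites (1.93%), 427 non-CpG cytosines within 50 bases averaged over 50%, and without such cytosines the mean near high sites was 0.946%, against 0.998% near other high-mean sites treated alike.

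A small group of high sites had an unlike opposite strand. Of 101 high sites with a partner value, 15 differed from it by more than 20 points. Among other high-mean sites 30 of 2126 did, and among other low-mean sites 58 of 7096. At 48573922 of chromosome 6 (plus strand) the site averaged 99.8% and its partner 3.74%. At 130661894 of chromosome 7 (plus strand, inside or within 1 kb of Tacc2, a centrosome-associated gene) the values were 100% and 6.70%, and at 55053032 of chromosome 14 (minus strand) 100% and 9.71%. These 3 sites are named after their values were seen. Of the 15 sites, 12 had a non-CpG cytosine over 50% within 50 bases. The site at 48054374 of chromosome 14 (minus strand, 99.7% and 6.36%) was among those without one. Among low sites 3 of 2625 partners differed that much, at Hpd on chromosome 5 and at 39845967 and 39848454 of chromosome 17, the last 2 at Rn18s-rs5, a ribosomal RNA gene.

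Low sites shared 1 kb windows more often than high sites, but there were more of them (11741 against 1453). They also lay at a higher CpG density (median 6 against 2). Windows are not given for the other complete sites, so the sharing is not shown to be particular to members. The low sites fell into 4828 windows, 1986 of which (41.1%) held a single one and 538 at least 5 (3504 of the 11741 sites). The high sites fell into 1306 windows, 1187 of which (90.9%) held a single one and 0 at least 5, and 1 window held both kinds. The windows with the most low sites held 16 of 23 complete sites at the shared start of Aldh6a1 and Lin52 (chromosome 12, 84451001 to 84452000), 16 of 22 at an end of Frg1, for which the start table holds no record (chromosome 8, 41417001 to 41418000) and 15 of 19 at Rtel1 (chromosome 2, 181319001 to 181320000). The windows with the most high sites held 4 each and lay between genes, on chromosome 3 from 5081001 and from 151234001, on chromosome 4 from 103563001 and on chromosome 5 from 88436001. All complete sites in them averaged 99.7%, 98.1%, 98.6% and 98.9%.

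Of 4521 protein-coding genes with a complete site within 1 kb of a start, 2835 (62.7%) had a low site there and 15 (0.332%) a high site. In only 19 of the 3322 genes with at least 3 such sites were all of them low sites. The genes with the most were Aldh6a1, a mitochondrial dehydrogenase of valine breakdown, and Lin52, which share a start region with 16 low sites among 23 complete ones. Rtel1, a helicase that protects telomeres, had 15 of 19. Bcl2l11, which encodes the cell death protein Bim, had 14 of 25, Rnf24 14 of 21, Ahcyl2 14 of 24 and Ankrd42 14 of 21. Arl1 and the neighbouring Gm4925 shared 14 of 21, and Stk35, a kinase gene, had 13 of 19. The highest value in any mouse at the low sites of these 10 genes was 4.92%, and the other complete sites near their starts averaged 2.25% to 4.49%.

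High sites were spread over long genes. Of 10520 genes with a complete site inside or within 1 kb, 527 (5.01%) had a high site. The median length of these genes was 107 kb, against 32.5 kb for all genes with a complete site, and a longer gene holds more sites. The largest number was 4, at Ttn (titin, the giant muscle protein, 4 of 75 complete sites), Wwox (4 of 127), the acid-sensing channel gene Asic2 (4 of 54) and the centrosomal gene Cep128 (4 of 30). Spag16, Bnc2, Yipf1, Man1c1, Zfp978 and Tgfbr3 had 3 each. At the 3 sites of Spag16 and the 3 of Man1c1 every mouse was at 100%. Asic2 and Cep128 also had complete sites at their starts, which averaged 2.99% and 0.567%, and 153 genes held both a low and a high site.

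Lists of genes by role gave the following counts, read against 62.7% of genes with a low site near a start and 35.4% of complete start sites being low sites. Of activity-regulated genes 7 of 17 had complete start sites, and all 7 (Bdnf, Egr2, Egr4, Fos, Fosb, Gadd45b and Junb) had a low site, with 31 of 66 sites (47.0%). Bdnf, the neurotrophin gene, had 9 of 23 near its starts, all at 0% in every mouse, Egr2 8 of 16 and Gadd45b 7 of 10. Of the methylation machinery and CXXC genes 4 of 18 had such sites, and all 4 (Tet1, Kdm2b, Mbd4 and Cxxc4) had a low site, with 12 of 32 sites (37.5%). Tet1, a dioxygenase that oxidises methylcytosine, had low sites at 4 of 4. Of housekeeping genes 4 of 20 had complete start sites and 3 a low site: Eif4a2 with 9 of 11, Gapdh with 5 of 10 and Polr2a with 1 of 4. Hox genes, which pattern the body axis and are silent in the forebrain, had a low site in 6 of 14 genes and at 10 of 62 sites (16.1%), the lowest share among the lists with any low site.

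Of dentate granule neuron genes 2 of 3 had a low site, Bcl11b with 3 of 9 and Prox1 with 2 of 5. Il16, the other gene of that list with a complete start site, had 0 of 1. Of pyramidal neuron genes 1 of 2 had a low site (Wfs1 3 of 9 sites, Fibcd1 0 of 4), of interneuron genes 1 of 2 (Lhx6 3 of 10, Dlx2 0 of 4) and of astrocyte genes 1 of 3 (Slc1a3 4 of 10, Aldh1l1 0 of 8, Aldoc 0 of 2). The 1 microglial gene with complete start sites, P2ry12, had 0 of 2, and 0 oligodendrocyte genes had such sites. Of 3 germline genes with complete start sites, 0 had a low site, and all complete start sites averaged 97.3% at Dazl and 90.4% at Tex101, whose promoters are methylated in somatic cells, and 61.0% at Sycp1. They had 0 high sites as well: the Dazl and Tex101 sites were highly methylated on average but missed the range limit. Imprinted genes, which carry methylation on one parental copy, had a low site in 3 of 4 genes (Grb10 with 4 of 7, Rasgrf1 with 2 of 6, Inpp5f with 1 of 4), and Gnas had 0 of 8 with a mean of 36.5%. Most lists had few genes with complete start sites, so their counts describe those genes only.

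Low sites made up 8.89% (chromosome 13) to 13.4% (chromosome 19) of an autosome's complete sites and high sites 0.946% (chromosome 11) to 1.94% (chromosome 3). The X chromosome, which the rule leaves out and of which female cells inactivate one copy, gave another picture under the same limits. Of 4174 complete X sites 13 were low (3.94% of low-mean X sites, against 20.1% to 26.2% on the autosomes) and 63 high (2.78% of high-mean sites, against 2.77% to 4.76%). Within 1 kb of a start 763 X sites averaged 37.0%, with 1.05% of them low sites, where 21176 autosomal sites averaged 5.96% with 34.4%.

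**Figure D4:**
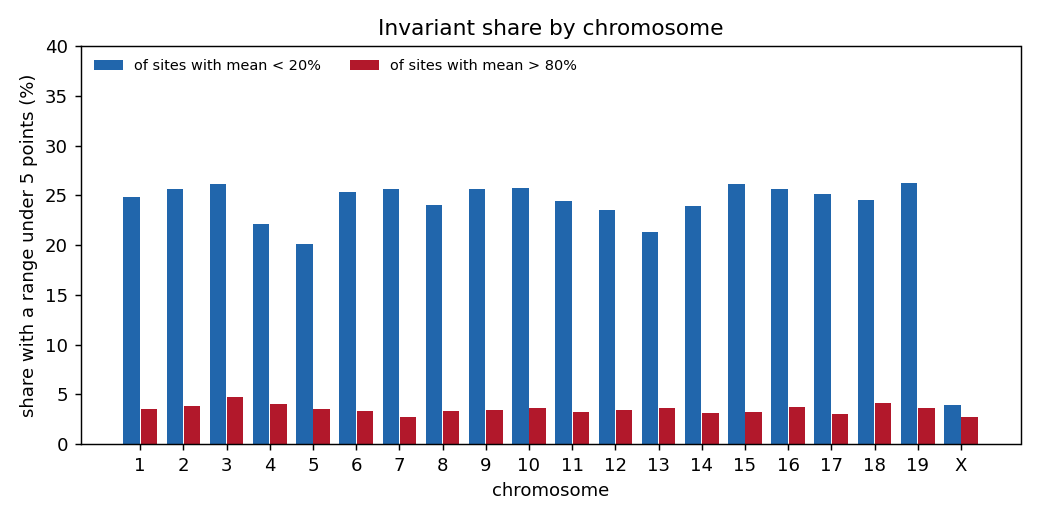
Share of complete CpG sites with a range under 5 points (y axis, percent) on each chromosome (x axis), for sites with a mean under 20% and above 80%. The autosomes stand between 20.1% and 26.2% for low means and the X chromosome at 3.94%.

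The mice differed in how often a member sat exactly at the end of the scale. The share of low sites at 0% was 98.3%, 94.8%, 93.5%, 96.4% and 96.4% in standard mice 1 to 5, 97.3%, 95.6%, 93.1%, 96.1% and 97.7% in enriched mice, and 94.4%, 94.4%, 95.9%, 90.6% and 94.7% in withdrawal mice. The groups overlapped, and withdrawal mouse 4 was the lowest. The share of high sites at 100% was 92.4%, 89.5%, 87.9%, 92.5% and 90.7% in standard mice, 91.5%, 92.1%, 86.5%, 90.2% and 94.01% in enriched mice, and 86.99%, 83.3%, 91.2%, 76.4% and 86.9% in withdrawal mice. Withdrawal mouse 4 was again the lowest. The number of CpG positions with a value is the only view of depth in the table. It was lowest in standard mouse 1 (297844), which had the highest share of low sites at 0%, and highest in withdrawal mouse 4 (444106), which had the lowest share. The part of depth in the shares was not tested.

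**Figure D5:**
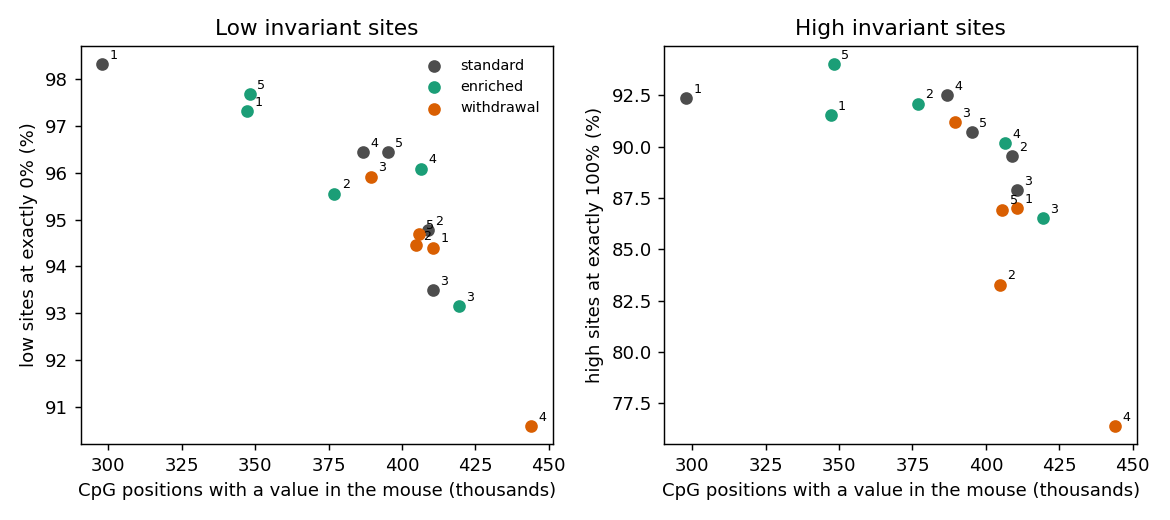
Share of low invariant sites at exactly 0% (left, y axis, percent) and of high invariant sites at exactly 100% (right) against the number of CpG positions with a value (x axis, in units of 1000 positions), 1 point per mouse, numbered within its group. Withdrawal mouse 4, with the most positions, is lowest in both panels at 90.6% and 76.4%.

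Averaged over low sites, standard mice had 0.0951% ± 0.0364 (SD, n = 5), enriched mice 0.0951% ± 0.0370 and withdrawal mice 0.133% ± 0.0372. Over high sites it was 99.8% ± 0.0586, 99.8% ± 0.0781 and 99.6% ± 0.131. The choice of sites bounds their ranges, so these differences of under 1 point are given with no test. A mouse that played no part in the choice was looked at by applying the range limit to the other 14. At low sites chosen this way 95.2% to 96.7% of the left-out mouse's values lay within 5 points of the others' mean, and 0.187% to 1.09% were more than 20 points away. At high sites 84.9% to 91.03% lay within 5 points, so the narrow range carried over less well at the methylated end. The lowest share at high sites was that of withdrawal mouse 4.

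Housing was compared at single sites with limma fitted to all 109658 complete autosomal CpG sites, members included. The range limit itself keeps group differences small at members, so their counts are a description. For enriched against standard, limma called 0 members at an adjusted p under 0.05 (percent called over all sites 0), and 41 members had an unadjusted p under 0.05, where 4.53% of all sites did. For withdrawal against standard it called 0 members (0.00365% of all sites) with 64 at an unadjusted p under 0.05 (4.07% of all sites). For withdrawal against enriched it called 0 members (0.00274%) with 66 at an unadjusted p under 0.05 (3.94%). Group means were identical at 75.8%, 70.9% and 70.8% of members, and no member's group means differed by more than 2.96 points. Both comparisons with withdrawal mice share those mice. Of the low sites with an unadjusted p under 0.05, 15 were higher and 14 lower in enriched than in standard mice, 39 higher and 12 lower in withdrawal than in standard mice, and 47 higher and 8 lower in withdrawal than in enriched mice. Over all complete sites the same counts were 2551 and 2418, 2459 and 2008, and 2358 and 1963. Of the high sites, 7 were higher and 5 lower, 2 higher and 11 lower, and 2 higher and 9 lower in the same order. The directions of the comparisons with withdrawal mice lead away from 0% and 100%, as do the shares of withdrawal mouse 4. This was not particular to members. At other low-mean sites the share at 0% averaged 51.9% in withdrawal, 59.3% in standard and 59.0% in enriched mice. At other high-mean sites the share at 100% averaged 43.0%, 51.7% and 52.2%. Withdrawal mice also had more CpG positions with a value, on average 410888 against 379838 and 379654. The part of coverage was not tested.

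The smallest p among members for enriched against standard was at 42709710 of chromosome 13 (minus strand, inside Phactr1, a regulator of actin and protein phosphatase). Standard mice had 0%, 0%, 1.12%, 0.833% and 0%, enriched mice 4%, 1.94%, 2.20%, 3.09% and 1.75%, and withdrawal mice 2.30%, 0.595%, 3.10%, 2.04% and 1.32%. All enriched mice lay above all standard mice, and the limma log2 ratio difference was 0.52 ± 0.12 (SE, adjusted p 0.564). For withdrawal against standard it was at 172026976 of chromosome 1 (minus strand, inside Vangl2 within 1 kb of a start, a planar cell polarity gene). Withdrawal mice had 1.53%, 2.19%, 2.42%, 2.99% and 0.345%, standard mice 0% in all 5, and enriched mice 0% in 4 and 0.549% in enriched mouse 3. All withdrawal mice lay above all standard mice, with a limma log2 ratio difference of 0.48 ± 0.09 (SE, adjusted p 0.483). For withdrawal against enriched it was a high site at 76833672 of chromosome 18 (plus strand). Withdrawal mice had 97.7%, 96.8%, 96.3%, 98.1% and 98.2%, enriched mice 100% in all 5, and standard mice 100% in 4 and 98.2% in standard mouse 5. All withdrawal mice lay below all enriched mice, and the limma log2 ratio difference was -0.63 ± 0.11 (SE, adjusted p 0.521). Each of these sites was picked for the smallest p among 13194 members, so the separation of groups there is no support for a difference.

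Leaving the members out changed the result for other sites. With members in the fit limma called 4 sites when withdrawal was set against standard and 3 when it was set against enriched, 5 different sites in all and 0 of them members. With the 13194 members left out it called 0 of 96464 in each of the 3 comparisons, with smallest adjusted p-values of 0.0619, 0.0976 and 0.192. In that limma fit 4918, 4251 and 4134 sites had an unadjusted p under 0.05, in the order enriched against standard, withdrawal against standard, withdrawal against enriched. The site at 86035050 of chromosome 17 (plus strand, inside Srbd1) had the smallest adjusted limma p with members in the fit, 0.000737 and 0.000429, and ran from 81.3% to 90.3% in withdrawal mice and from 98.2% to 100% in all others. The other 4 were at 62702649 of chromosome 1 (near Nrp2), 87628999 of chromosome 13, 52966802 of chromosome 5 and 7836327 of chromosome 9 (near Birc2). Leaving out single mice moved the number of called sites, members in the fit, from 2 to 27 when withdrawal was set against standard, from 2 to 18 when it was set against enriched and from 0 to 8 for enriched against standard, with the highest counts of the first 2 without withdrawal mouse 3.

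How many sites count as invariant depended on the limits. With a value in at least 14 mice there were 25204 low and 2865 high sites, without standard mouse 1 there were 17694 low sites, and a range under 2 or 10 points gave 727 or 4885 high sites.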

How the data were processed

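Percent methylation per cytosine and strand, 1 column per mouse, is the only unit of the deposited table; the submitters' processing notes name Trim Galore 0.4.0, cutadapt 1.8.1, Bismark 0.16.1, methylKit 1.5.2 and build mm10, and the coverage minimum is not given in the sources used here. No read depth is given, so no counting intervals were computed. The first of 2 runs through the chromosomes (455836 positions) was taken as CpG, the second as non-CpG. Gene positions and promoter sequences came from RefSeq (GRCm38.p6). Start positions covered 18 autosomes and X. Chromosome 18 is left out of location shares. limma 3.58.1 (R 4.3.3) fitted log2((percent + 5)/(100 - percent + 5)) to 3 group means, with a variance prior following the mean, two-sided, with Benjamini-Hochberg adjustment, and was tested on simulated data. Every simulated site varied between mice, so that test does not cover the 8001 sites at 0% and 628 at 100% in all mice. Other values were computed in Python 3.11.15. The named genes were those with the most members (10 for low, 10 for high), the lists by role, the densest 1 kb windows and sites beside the range limit. Members and lists were chosen with earlier results of these data known. The labels' title gives groups and numbers. Nothing states that mice are from separate litters or cages, so the spread is that between these samples.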

Additional observations from a re-analysis of the deposited data

Results flagged for a closer look

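In the withdrawal group, mouse 4 stood apart from the other 4 mice in the share of low sites at 0%, with 90.6%, and was alone the highest mouse at 543 low sites, where the other withdrawal mice were so at 217 to 290 sites. In the standard group, mouse 1 stood apart in the number of CpG positions with a value, with 297844 where the others had 386681 to 410580. A gap from the nearest mouse that is large against the whole range of the group was the criterion, and 7 quantities were looked at in each of 3 groups. Chance gives such a gap in about 1 in 20 groups.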

How the results depend on the processing

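A range under 2 points gave 727 high sites, a share of 66.2% of low sites near a start and a median density of 7 around low sites. A range under 10 points gave 4885 high sites and a share of 61.1%. Values in at least 14 mice gave 25204 low and 2865 high sites, 65.3% and a density of 7. A distance of 0.5 or 2 kb to a start gave 49.8% and 69.4%. The density around low sites was 4 within 50 bases, 13 within 500 bases and 4 with complete positions only, and around high sites 3 within 500 bases, against 7 and 2 around other low-mean and high-mean sites within 500 bases. Leaving out single mice gave 12355 to 17694 low and 1690 to 1889 high sites, 63.8% to 65.2% near a start, a density of 6 to 7, and 0 to 1 called members for both comparisons of withdrawal mice by limma. The called members were the Vangl2 site at 172026976 of chromosome 1 without withdrawal mouse 5 (adjusted p 0.00451 against standard, 0.00835 against enriched) and a site at 144165706 of chromosome 2 without withdrawal mouse 3 (0.0270 and 0.0323). Each time the mouse left out was the withdrawal mouse nearest to the other groups, so these p-values support no difference. Fewer mice allow more complete sites, and the cause of the other changes was not tested. Of 42 alternatives that kept all mice, 27 stayed within the limits set for them, 15 moved and 0 reversed. With the replicate number as a block limma called 0 members in each of the 3 comparisons, and 0 sites of any kind. The numbers do not pair the mice: correlations of deviations between same-numbered mice ran from -0.0146 to 0.0154. A range of at least 5 points leaves no member and gave no value. Unknown depth limits all of this: a value of 0% or 100% can rest on few reads.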

Other observations

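The 13 low sites of the X chromosome lay at few genes, named here after their values were seen. Of these, 3 were at the start of Eif2s3x, a translation factor subunit, and 1 at the start of Kdm5c, a histone demethylase; both genes are known to be expressed from the inactive X as well. A further 4 lay at the start shared by Tmem29 and Apex2, 2 inside Bcor, 1 inside Nhsl2 and 2 between genes. At Eif2s3x the sites at 94213119, 94213138 and 94213151 (minus strand) averaged 0.0331%, 0.805% and 1.28%, and the Kdm5c site at 152233627 (minus strand) averaged 0.256%.

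High sites also occurred inside some genes of the lists: Dsp, a desmosome gene used as a granule neuron marker, held 1 site that averaged 99.7%, Peg10, an imprinted gene, 1 site at 99.4%, and Inpp5f 1 high site beside its low one.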
